A study of Mus musculus with 9 samples.

Results

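The extracellular matrix genes followed here are 54 genes for matrix glycoproteins, proteoglycans and the enzymes that crosslink, process or degrade the matrix, with the collagen chains left out. They were listed by symbol, matched exactly in the tables of all 9 libraries, and required to lie above 0 in each of them, which all 54 did. The tables hold 24356 gene symbols, of which 14675 were above 0 in all 9 libraries and were tested. By role the 54 comprised 12 matricellular and adhesive glycoproteins, 11 elastic fibre and microfibril proteins, 9 basement membrane proteins, 7 proteoglycans, 6 crosslinking and collagen maturation proteins, and 9 proteases and inhibitors. The genes lie on 20 chromosomes.

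The extracellular matrix is the network of secreted proteins that surrounds the cells of a tissue. Around each adipocyte lies a basement membrane, a sheet built of laminins, nidogens and heparan sulphate proteoglycans, and between the cells run collagen fibrils and elastic fibres that are spaced by small proteoglycans and crosslinked by lysyl oxidases. Matricellular proteins such as thrombospondins, SPARC and periostin add little strength and instead modulate how cells attach and signal, and metalloproteinases and their inhibitors set how fast the network is renewed.

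Transcripts were measured in brown adipose tissue (BAT), the fat depot that produces heat, of GHRH-KO mice. These carry a targeted disruption of the gene for growth hormone releasing hormone, the hypothalamic peptide that drives growth hormone secretion. The groups were 2 KO females, 2 KO males, 3 WT females and 2 WT males, all on a mixed C57BL6 and 129SV background and fed chow without restriction, with littermates as controls. Each library is one animal, numbered here within its group by animal number, and their ages are not given in the sources used here. Values are FPKM, in which the fragments of a transcript are divided by its length and by the size of the library, so that levels of different genes can be set side by side.

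The targeted gene ran against the labels, and what a disrupted allele still transcribes was not tested. Ghrh (chr2:157329497-157347506, GRCm38) was listed at 0 FPKM in each of the 5 WT libraries, and at 0.846 and 0.233 FPKM in the KO females and 0.799 and 0.470 FPKM in the KO males. Every direction given here therefore refers to the library labelled KO and the library labelled WT, and KO and WT stand for these labels throughout. Igf1, a transcript that growth hormone is known to raise, was at 0.713, 0.892, 2.46 and 1.28 FPKM in KO females 1 and 2 and KO males 1 and 2, and at 5.66, 4.75, 2.68, 2.13 and 8.80 FPKM in WT females 1 to 3 and WT males 1 and 2. Its estimate of -1.84 (log2, SE 0.45, limma adjusted p 0.0661) lay in the direction of the labels without passing the test.

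Some libraries stood apart before any comparison was made. Summed FPKM ranged from 380558 to 443569, relative depth estimated from low values from 0.904 to 1.15 of that of WT female 1, and the single most abundant feature took 3.16% to 10.3% of a library, the most in KO male 2. KO male 1 had Spearman correlations of 0.924 to 0.934 with the other libraries, whose correlations reached 0.991. It also held 156 summed FPKM over 7 lymphocyte markers against 1.02 to 2.33 in the other 8 libraries, and 617 of 8 macrophage markers against 49.8 to 188. Summed over 9 white adipocyte markers, WT female 1 and WT male 2 reached 340 and 330 FPKM, where the other WT libraries held 95.6 to 98.6 and the KO libraries 49.9 to 109, and the markers Hoxc10 and Tcf21 were at 0 in all 9. Skeletal muscle markers, 12 genes, summed to 2607 to 11071 FPKM in KO and 399 to 2147 in WT, at most 2.58% of a library. All 12 estimates were above 0 (median 2.28), and 3 were called higher, against 1.43% of all genes. An unadjusted limma p under 0.05 was reached by 11 of the 12, against 20.2% of all genes. For 8 every KO library lay above every WT library, against 3.03%. For the tissue label, 10 brown adipocyte markers, all detected in each library, summed to 6616 to 8618 FPKM in KO and 6307 to 8157 in WT, with 0 of 10 passing the test for genotype. Among 8 smooth muscle and pericyte markers, 7 estimates were below 0 (median -0.60) and 8 had an unadjusted limma p under 0.05. Myh11 was called lower, and Des was called higher at 1.59, the only estimate of the 8 above 0. Sums over the 8, Des included, were 165 to 271 FPKM in KO and 142 to 179 in WT. Of the white adipocyte markers 6 were tested, and all 6 estimates were below 0 (median -0.97), against 62.5% of all genes. Lep alone of the 6 was called lower (-3.21), against 2.17% of all genes. Of 7 pan-adipocyte markers 6 were below 0 (median -0.23), and 1 was called lower, Cidec (-0.44). Estimates that moved when KO male 1, WT female 1 or WT male 2 was left out are given after the main counts, and the part of the marker transcripts in the differences reported here was not tested.

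**Figure D1:**
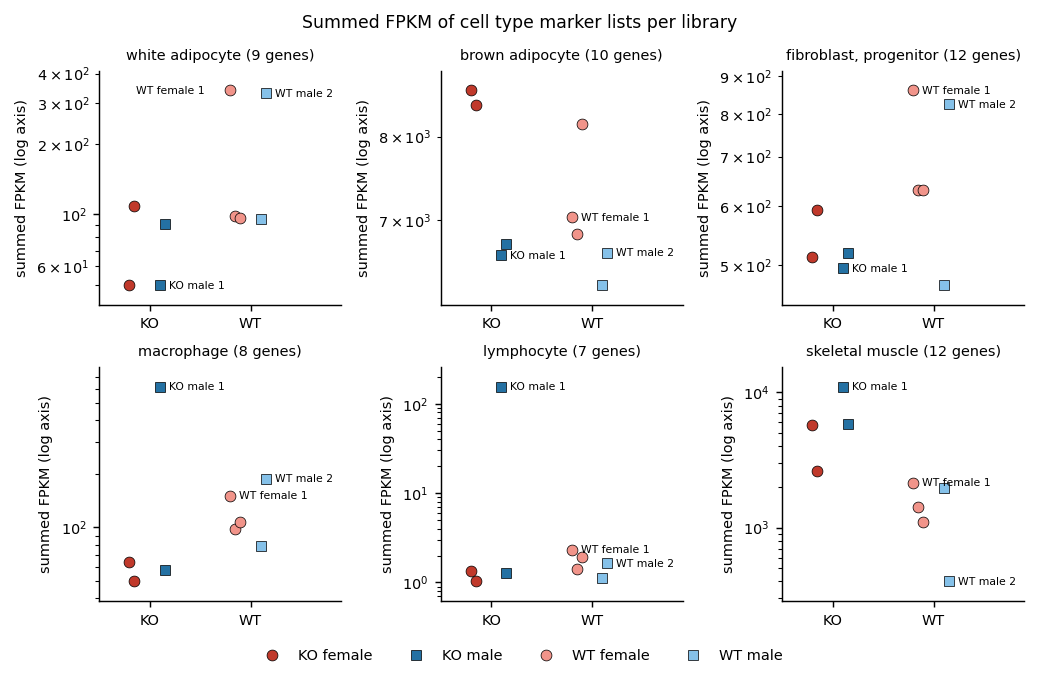
Summed FPKM of 6 cell type marker lists in each library (vertical axis, log scale) for KO and WT (horizontal axis), circles for females and squares for males. KO male 1 stands at 156 FPKM of lymphocyte markers against at most 2.33 elsewhere, WT female 1 and WT male 2 hold the highest white adipocyte sums, and the skeletal muscle sums of KO and WT do not overlap.

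The first comparison was of matrix transcripts between KO and WT with both sexes averaged. The 54 genes were chosen with earlier results of these data known. Counts set against all genes, here and below, therefore describe the list and are no test of it. Of the 54 genes, 9 passed a limma adjusted p under 0.05 and all 9 were lower, against 2.17% of all tested genes called lower (319 of 14675), while 0 of the 54 were called higher against 1.43% of all genes (210). The 9 were Svep1, Thbs1, Postn and Sparc among the matricellular proteins, Fbln5 of the elastic fibre, Lamc1 of the basement membrane, the proteoglycan gene Lum, and the inhibitor genes Timp3 and Itih5. In whole tissue, fewer cells of a type and less RNA per cell cannot be told apart. The estimate, the mean of the female and male differences in log2 FPKM, was below 0 for 50 of the 54 genes, against 62.5% of all genes, and its median was -0.53 over the 54 and -0.07 over all genes. An unadjusted limma p under 0.05 was reached by 33 of the 54, against 20.2% of all genes. The 4 estimates not below 0 were those of Fmod, Mfap4, Loxl1 and Mfap2.

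Separation of single libraries gave a similar count in a simpler form. For 15 of the 54 genes every KO library lay below every WT library, against 6.04% of all genes, and for 0 of them every KO library lay above every WT library, against 3.03%. These 15 were Svep1, Thbs1, Postn, Sparc, Matn2, Fbln2, Fbln5, Efemp1, Nid1, Nid2, Lamb2, Lamc1, Agrn, Lum and Itih5. With KO male 1, WT female 1 and WT male 2 left out together, 24 of the 54 separated in this way, against 17.0% of all genes, and 6 were called lower, namely Svep1, Thbs1, Sparc, Timp3, Tnc and Bgn, against 0.729% of all genes. The median estimate was then -0.41, with 48 of 54 below 0. Of the 5 called genes that were then no longer called, Itih5 was at -0.58 (limma adjusted p 0.0507), Postn at -0.63 (0.0606), Lamc1 at -0.57 (0.0698), Lum at -0.75 (0.0798) and Fbln5 at -0.60 (0.158). The number of calls was sensitive to single libraries. It was 1, Svep1, without any one of KO female 1, KO female 2, WT female 1, WT female 3 or WT male 2, and 2 without WT female 2. The calls over all genes fell in those same 6 fits, from 319 to between 4 and 23. Without KO male 1 it was 8, against 2.25% of all genes, without KO male 2 it was 13, against 3.30%, and without WT male 1 it was 17, against 3.11%. Centring each library on its median log2 FPKM left Svep1 and Thbs1 called, and turned the balance over all genes from 319 lower and 210 higher to 92 lower and 130 higher.

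Single estimates also depended on the libraries that stood apart. Without KO male 1, 11 of the 54 estimates moved by over 1.5 times, among them Fn1 to -0.86, Mmp14 to -0.86, Timp2 to -0.71, Emilin1 to -0.45, Dcn to -0.41, Mfap5 to -0.37, Ecm2 to -0.33 and Loxl2 to -0.23, the others being Tnc, Bgn and Fmod. Without WT female 1, Dcn moved to -0.13 and Mfap2 to 0.21, and Efemp1 was at -0.45. Without WT male 2, 21 moved by over 1.5 times, of which 4 changed sign, namely Emilin1 to 0.20, Timp1 to 0.082, Serpinh1 to 0.052 and Prelp to 0.0039. Of the remaining 17, Loxl1 was at 0.41 and Mfap2 at 0.21, and 15 came closer to 0, such as Fn1 at -0.22, Lama4 at -0.41 and Adamts2 at -0.47. Lamc1 was at -0.58 without WT male 2. With all 3 left out, 22 moved by over 1.5 times, and Serpinh1 and Timp1 changed sign.

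**Figure D2:**
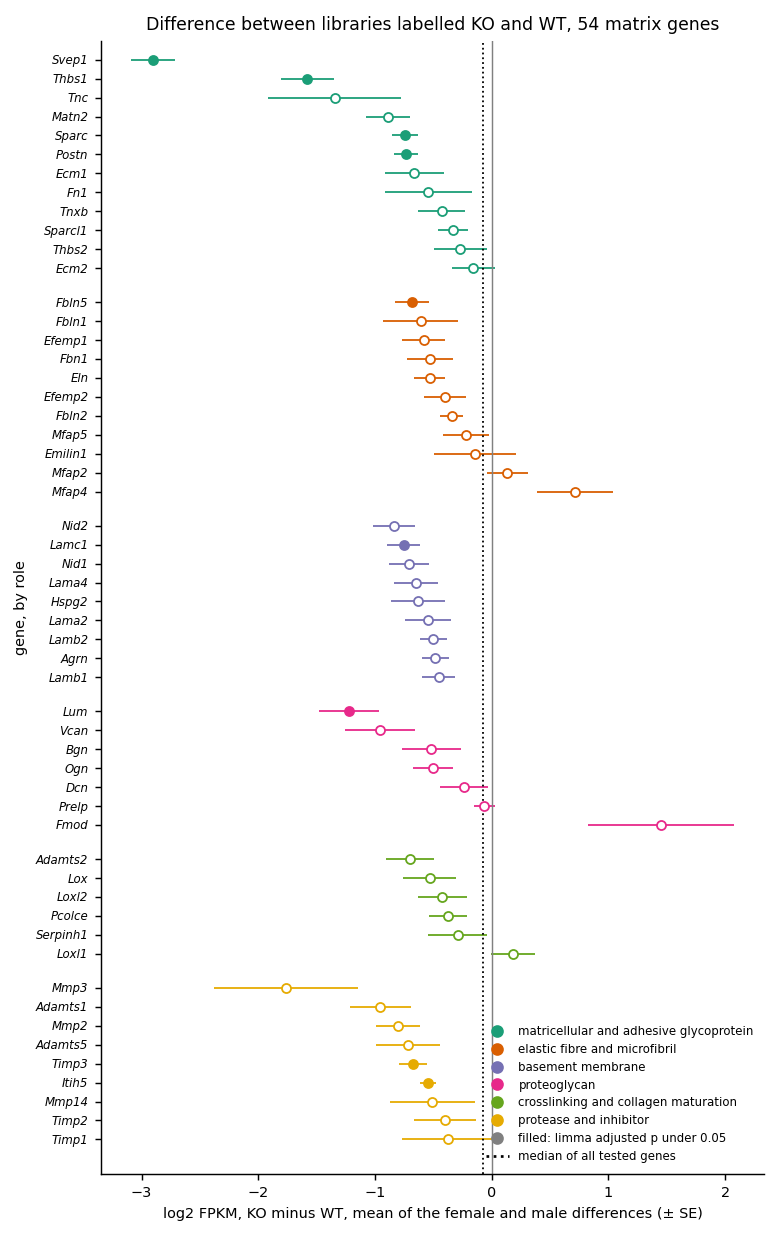
Difference between KO and WT in log2 FPKM for each of the 54 genes (horizontal axis, points with SE bars), grouped and coloured by role along the vertical axis. Filled points are the 9 genes with a limma adjusted p under 0.05, all left of 0, and the dotted line is the median of all tested genes at -0.07.

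**Figure D3:**
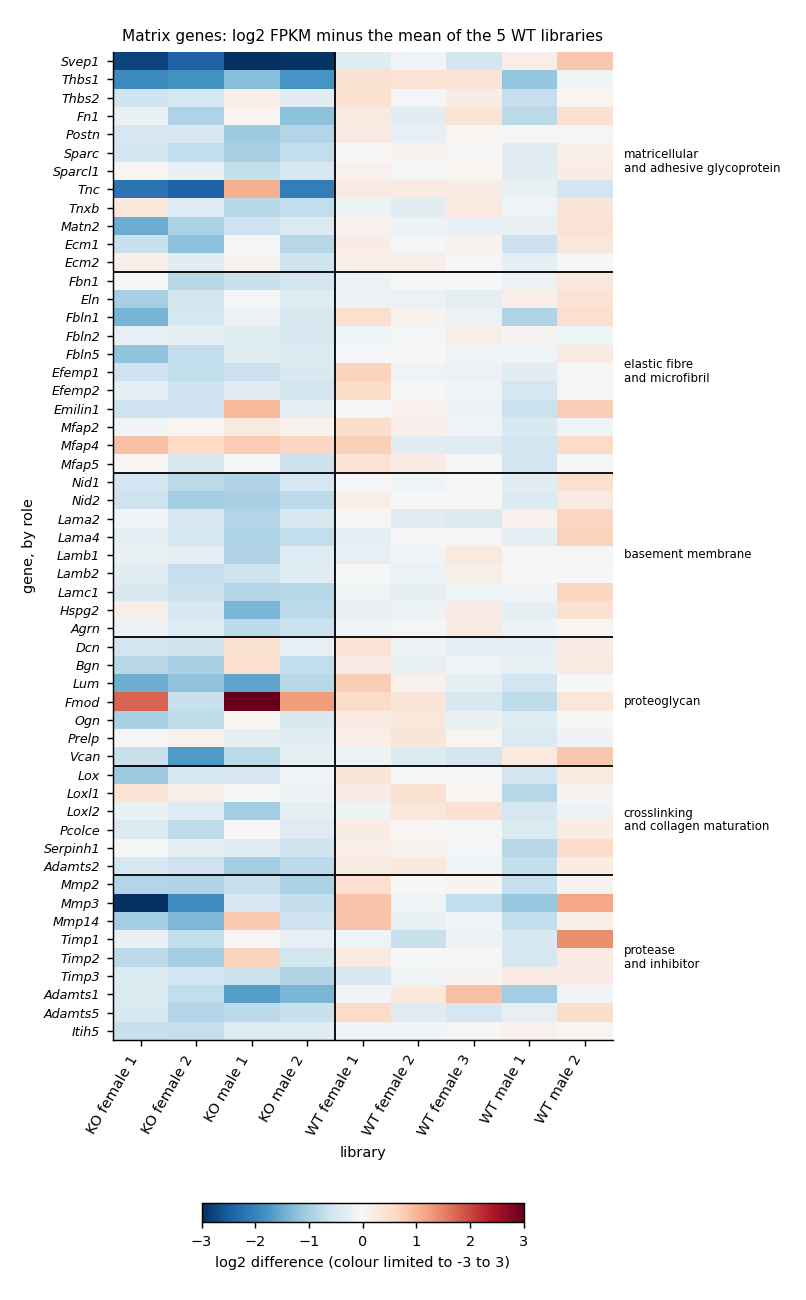
Log2 FPKM of the 54 genes (rows, by role) in the 9 libraries (columns) minus the mean of the 5 WT libraries, blue for lower and red for higher, with colour limited at 3 in either direction. Blue prevails in the 4 KO columns, with exceptions in KO male 1 such as Tnc, Bgn and Fmod, and the WT male 2 and WT female 1 columns hold many of the red cells.

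Among the matricellular and adhesive glycoproteins all 12 estimates were below 0, against 62.5% of all genes, with a median of -0.70. Of the 12, 4 were called, against 2.17%, and 5 did not overlap, against 6.04%. Summed over the 12 genes, of which Sparc had the highest level, KO libraries held 174 to 235 FPKM and WT libraries 251 to 350 FPKM. The role had the largest difference of the 54 genes in Svep1 (chr4:58042442-58206859, minus strand), which encodes a large multidomain protein that binds integrin alpha 9 beta 1 and acts in lymphatic development. Svep1 was at 0.463 and 0.586 FPKM in the KO females and 0.364 and 0.413 in the KO males. In WT it was at 2.48, 2.99 and 2.16 FPKM in females and 3.62 and 5.51 in males. The lowest WT library thus held more than the highest KO library in either sex, and the WT level was 7.46-fold that of KO (log2 difference -2.90, SE 0.19, limma adjusted p 0.00356, range 0.00271 to 0.0293 over 17 alternatives, called in all 17). The exact permutation p, two-sided, was 0.00794, the smallest that the splits of 9 libraries into 4 and 5 can give, and 0.136 after Benjamini-Hochberg adjustment over all genes. Of the exonic bases of Svep1, 13.9% are shared with an antisense gene, Gm26889, and whether counting used strand is not given in the sources used here.

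Thbs1 (chr2:118111876-118127133) encodes thrombospondin 1, an adhesive protein that inhibits angiogenesis and activates latent TGF-beta. Its transcript was at 0.690, 0.745, 1.07 and 0.764 FPKM in KO females 1 and 2 and KO males 1 and 2, at 3.55, 3.51 and 3.45 FPKM in the WT females, and at 1.16 and 2.36 FPKM in the WT males. The gap was wide in females and narrow in males, where WT male 1 lay just above KO male 1. The log2 difference was -1.58 (SE 0.23, limma adjusted p 0.0287, range 0.00631 to 0.130, called in 10 of 17 alternatives). Thbs2, its paralogue, overlapped between the labels at 0.683 to 1.18 FPKM in KO and 0.641 to 1.42 in WT (-0.27, SE 0.23, adjusted p 0.584).

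SPARC and periostin are collagen-binding matricellular proteins. Sparc (chr11:55394500-55423183, minus strand) was one of the highest of the 54 genes, at 121 and 107 FPKM in KO females, 89.1 and 107 in KO males, 179, 191 and 184 in WT females and 144 and 199 in WT males. No KO library reached the lowest WT library (106 ± 13.1 against 179 ± 21.1 FPKM, mean ± SD, n = 4 and 5), and the log2 difference was -0.74 (SE 0.11, limma adjusted p 0.0290, range 0.00833 to 0.120, called in 9 of 17 alternatives). Postn (chr3:54361109-54391037) was at 20.3 and 20.4 FPKM in KO females, 13.6 and 15.5 in KO males, 34.2, 24.4 and 30.0 in WT females and 27.9 in both WT males. Here too the labels did not overlap, and KO males were below KO females (log2 difference -0.73, SE 0.11, limma adjusted p 0.0288, range 0.0227 to 0.130, called in 9 of 17). The homologue of Sparc, Sparcl1, overlapped at 39.4 to 67.0 FPKM in KO and 51.4 to 74.6 in WT (-0.33, adjusted p 0.199).

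Of the remaining matricellular genes, Matn2, for the filament-forming matrilin 2, came closest to a call. It was at 1.11 to 2.32 FPKM in KO and 2.67 to 4.24 in WT, without overlap (-0.89, SE 0.19, limma adjusted p 0.0501, called in 3 of 17 alternatives). Tnc encodes tenascin C, a glycoprotein of developing and injured tissue, and had 1 KO library far from the other 3. It was at 0.253 and 0.220 FPKM in KO females and 0.278 in KO male 2, at 2.47 in KO male 1, and at 0.793 to 1.42 in the 5 WT libraries. Its log2 difference was -1.35 (SE 0.57, adjusted p 0.240) with all libraries and -2.13 without KO male 1, where it was called. Ecm1 had an estimate of -0.67 (adjusted p 0.193), Fn1, the fibronectin gene, -0.54 (0.484), Tnxb -0.43 (0.290) and Ecm2 -0.16 (0.722), all with overlap between the labels.

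**Figure D4:**
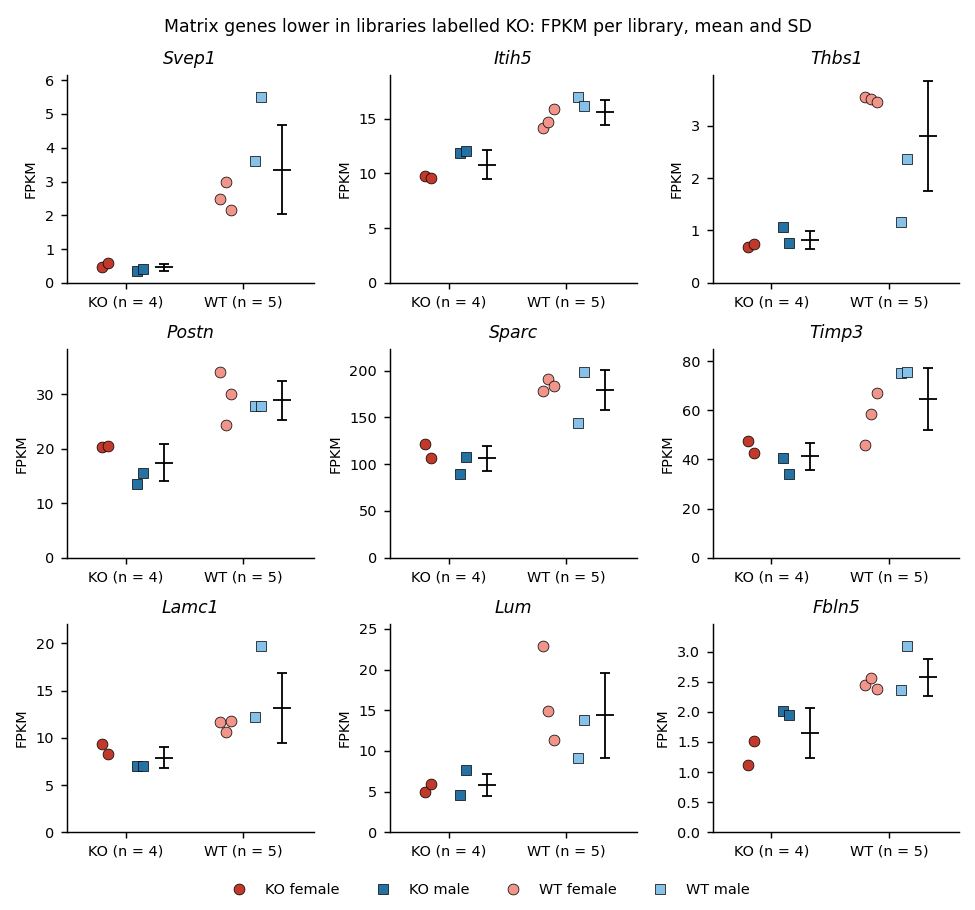
FPKM in each library (points, circles for females and squares for males, vertical axes from 0) with the mean and SD of KO (n = 4) and WT (n = 5) for the 9 genes with a limma adjusted p under 0.05. The KO and WT points overlap only for Timp3, where KO female 1 at 47.6 FPKM lies above WT female 1 at 46.1 FPKM.

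Elastic fibre and microfibril genes had a median estimate of -0.40, with 9 of 11 below 0, against 62.5% of all genes. Of the 11, 1 was called, against 2.17%, and 3 did not overlap, against 6.04%. The call was Fbln5 (chr12:101746565-101819055, minus strand), which encodes fibulin 5, a protein needed to assemble elastin onto microfibrils. It was at 1.11 and 1.52 FPKM in KO females, 2.01 and 1.94 in KO males, 2.45, 2.57 and 2.39 in WT females and 2.36 and 3.09 in WT males. KO males sat nearer to WT than KO females did (log2 difference -0.69, SE 0.15, limma adjusted p 0.0490, up to 0.171 over the alternatives, called in 2 of 17 alternatives). Efemp1, for fibulin 3, had the highest level of this role and did not overlap, at 9.32 to 11.5 FPKM in KO and at 24.9, 14.5 and 13.8 FPKM in WT females and 12.5 and 15.0 in WT males, yet it was not called (-0.58, SE 0.18, adjusted p 0.127). WT female 1 was far above the other WT libraries. Fbln2 separated with a small gap, 4.80 to 5.60 against 6.10 to 7.64 FPKM (-0.34, adjusted p 0.101).

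The core components of the elastic fibre had like estimates without a call. Eln, the elastin gene, was at -0.53 (SE 0.13, adjusted p 0.0677) and Fbn1, the fibrillin 1 gene, at -0.53 (SE 0.20, adjusted p 0.183), with 20.1% of the exonic bases of Fbn1 shared with the antisense gene Gm9913. Fbln1 was at -0.61 (adjusted p 0.350), Efemp2 at -0.40 (0.276), Mfap5 at -0.22 (0.605) and Emilin1 at -0.14 (0.887). The exception was Mfap4, whose protein binds elastin and collagen. It was at 2.21 and 1.8 FPKM in KO females and 2.04 and 1.83 in KO males, and in WT at 1.95 in female 1 and 1.82 in male 2 but 0.939, 0.912 and 0.799 in the other 3 libraries. The estimate of 0.71 (SE 0.32, adjusted p 0.274) did not pass, and WT female 1 and WT male 2, which stood apart in white adipocyte markers, were the WT libraries that overlapped with KO. Mfap2 was close to equal, 1.06 to 1.35 against 0.825 to 1.61 FPKM (0.13, SE 0.18, adjusted p 0.765).

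Basement membrane genes had the narrowest range of estimates among the 6 roles. All 9 lay between -0.84 and -0.46, and all 9 had an unadjusted limma p under 0.05, against 20.2% of all genes. Of the 9, 5 did not overlap, against 6.04%, and 1 was called, against 2.17%. Their summed level was 51.2 to 80.4 FPKM in KO and 86.9 to 121 in WT. Lamc1 (chr1:153218922-153332786, minus strand) encodes the laminin gamma 1 chain shared by most laminins. It was at 9.29, 8.26, 6.99 and 7.06 FPKM in KO females 1 and 2 and KO males 1 and 2, and at 11.7, 10.6, 11.8, 12.2 and 19.7 in WT females 1 to 3 and WT males 1 and 2. The WT range was stretched by WT male 2, and no KO library reached the lowest WT value (log2 difference -0.75, SE 0.14, limma adjusted p 0.0385, range 0.00733 to 0.138, called in 6 of 17 alternatives).

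The other laminin chains and linkers lay close by. Nid2 and Nid1 encode nidogens, which link laminin to type IV collagen, and were at 1.11 to 1.46 against 1.68 to 2.72 FPKM (-0.84, SE 0.18, adjusted p 0.0519) and at 6.33 to 8.34 against 9.64 to 16.8 FPKM (-0.71, SE 0.17, adjusted p 0.0655). Lamb2 was at 8.28 to 10.7 FPKM in KO and 11.8 to 15.2 in WT (-0.50, SE 0.12, adjusted p 0.0609), and Agrn, for the heparan sulphate proteoglycan agrin, at 3.04 to 4.67 and 4.68 to 6.32, the narrowest of these gaps (-0.48, SE 0.12, adjusted p 0.0668). Lamb1, the laminin chain with the highest level, was at 20.5, 19.7, 12.9 and 18.4 FPKM in KO and 20.4, 22.9, 29.5, 24.9 and 23.7 in WT. KO female 1 and WT female 1 overlapped there by a small margin (-0.46, SE 0.14, adjusted p 0.122). Lama4, the laminin alpha chain typical of adipose and vascular basement membranes, was at -0.65 (adjusted p 0.103), the perlecan gene Hspg2 at -0.63 (0.170) and Lama2, the chain typical of muscle and nerve, at -0.55 (0.169). Endothelial cells also make basement membrane, and 8 endothelial markers summed to 149.5 to 228 FPKM in KO and 171 to 233 in WT, with 8 of 8 estimates below 0 (median -0.28), 0 of 8 called by limma and 3 at an unadjusted p under 0.05. Pericytes do so too, and the values of their markers are given above.

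Small leucine-rich proteoglycans bind collagen fibrils and set their width and spacing, and the proteoglycan genes differed among themselves. The median estimate was -0.50, with 6 of 7 below 0, against 62.5% of all genes. Of the 7, 1 was called, against 2.17%, and 1 did not overlap, against 6.04%. The call was Lum (chr10:97565128-97572703), for lumican, at 5.00 and 5.97 FPKM in KO females, 4.59 and 7.67 in KO males, 22.9, 14.9 and 11.3 in WT females and 9.18 and 13.8 in WT males. The WT libraries spread widely but all exceeded KO (-1.22, SE 0.25, limma adjusted p 0.0459, range 0.0305 to 0.173, called in 3 of 17 alternatives). Dcn (chr10:97479609-97518143), for decorin, lies beside Lum on the same chromosome and was at 76.9, 73.5, 153 and 93.9 FPKM in KO and 153, 102, 93.7, 92.2 and 132 in WT. KO male 1 had the highest of the 9 values, and the difference was -0.24 (SE 0.21, adjusted p 0.605), or -0.41 without that library. Bgn, for biglycan, had the same exception. It was at 16.0, 14.4 and 17.0 FPKM in the KO females and KO male 2, at 40.1 in KO male 1, and at 24.5 to 34.6 in WT (-0.52, SE 0.25, adjusted p 0.305, and -0.83 without KO male 1, where it was called).

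Fmod, for fibromodulin (chr1:134037254-134048277), had the most positive estimate of the 54 genes. It was at 2.21 and 0.413 FPKM in KO females, 6.53 and 1.55 in KO males, 0.949, 0.841 and 0.470 in WT females and 0.386 and 0.822 in WT males. KO female 2 lay below 4 of the 5 WT libraries and KO male 1 far above all others (1.45, SE 0.63, adjusted p 0.248, and 0.93 without KO male 1). Prelp, its neighbour on chromosome 1 (chr1:133910304-133921414, minus strand), was near equal at 78.4 to 108 FPKM in KO and 72.6 to 126.1 in WT (-0.07, SE 0.09, adjusted p 0.775). Ogn, for osteoglycin, was at -0.50 (adjusted p 0.15) and Vcan, for the large proteoglycan versican, at -0.96 (SE 0.30, adjusted p 0.122) from levels of 0.128 to 0.336 FPKM in KO and 0.285 to 0.726 in WT.

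Crosslinking and collagen maturation genes had a median estimate of -0.40, with 5 of 6 below 0, against 62.5% of all genes. By limma 0 were called, against 2.17% called lower, and 2 had an unadjusted p under 0.05, against 20.2%. Of the 6, 0 were without overlap, against 6.04%. Serpinh1, for the collagen chaperone HSP47, had the highest level, at 81.0, 70.2, 66.7 and 55.8 FPKM in KO and 97.2, 90.2, 82.9, 47.6 and 124 in WT. WT male 1 had the lowest and WT male 2 the highest value of all 9 libraries, so that the estimate of -0.29 (SE 0.25, adjusted p 0.598) became -0.64 without WT male 1 and 0.052 without WT male 2. Adamts2, the proteinase that removes the amino-terminal propeptide of procollagens, had the lowest p of the role. It was at 2.10, 1.98, 1.5 and 1.77 FPKM in KO and 3.67, 3.83, 2.85, 1.86 and 3.55 in WT, with WT male 1 within the KO range (-0.70, SE 0.21, adjusted p 0.107). Pcolce, which enhances removal of the other propeptide, was at -0.38 (adjusted p 0.258). Of the lysyl oxidases, Lox was at -0.53 (adjusted p 0.242), Loxl2 at -0.42 (0.316) and Loxl1 at 0.18 (SE 0.19, 0.687). Loxl1 was at 10.9, 9.30, 8.33 and 7.42 FPKM in KO and 9.76, 11.3, 8.58, 4.55 and 8.63 in WT, where WT male 1 alone lay below all KO libraries, and its estimate was -0.049 without that library.

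Proteases and their inhibitors were below 0 in 9 of 9 cases, against 62.5% of all genes, with a median of -0.67. Of the 9, 2 were called, against 2.17%, and 1 did not overlap, against 6.04%. Both calls were inhibitors or matrix stabilizers. Itih5 (chr2:10153571-10256529) belongs to the inter-alpha-trypsin inhibitor heavy chains, which bind and stabilize hyaluronan. It was at 9.75 and 9.56 FPKM in KO females, 11.9 and 12.0 in KO males, 14.1, 14.7 and 15.9 in WT females and 17.0 and 16.2 in WT males. The labels did not overlap, and the SE was the smallest of the 9 called genes (-0.55, SE 0.07, limma adjusted p 0.0222, range 0.0157 to 0.104, called in 8 of 17 alternatives). Timp3 (chr10:86300372-86349506) encodes the metalloproteinase inhibitor that is itself bound to the matrix. It was at 47.6, 42.6, 40.8 and 34.0 FPKM in KO and 46.1, 58.4, 67.2, 75.3 and 75.8 in WT. KO female 1 and WT female 1 overlapped, and the gap was wider in males (-0.67, SE 0.12, limma adjusted p 0.0357, range 0.0292 to 0.134, called in 8 of 17). Of the exonic bases of Timp3, 21.3% are shared with Syn3 on the other strand.

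Among the metalloproteinases, Mmp2, the type IV collagenase, was at 5.79 to 6.94 FPKM in KO and 6.89 to 15.9 in WT, overlapping by KO male 1 and WT male 1 alone (-0.80, SE 0.19, adjusted p 0.0609). Mmp3, stromelysin 1, ranged over 0.180 to 1.98 FPKM in KO and 1.27 to 6.26 in WT (-1.76, SE 0.62, adjusted p 0.162). Mmp14, the membrane-bound activator of pro-MMP2, was at 2.91, 2.32 and 3.81 FPKM in the KO females and KO male 2 and at 10.1 in KO male 1, against 3.57 to 10.6 in WT (-0.51, adjusted p 0.502). The aggrecanase genes Adamts1 and Adamts5, both on chromosome 16, were at -0.95 (adjusted p 0.0848) and -0.72 (0.198). Timp1 and Timp2 were at -0.38 (0.677) and -0.40 (0.462), and Timp2 had KO male 1 as its highest library at 33.1 FPKM against 10.2 to 14.1 in the other KO libraries.

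The sequence before the transcription start is given as a description of the called genes, and the libraries hold no measurement of promoters. Of the 54 genes, 37 have an entry in the RefSeq promoter table (GRCm38.p6), as do 6 of the 9 called genes, and 45 starts are listed for the 37. The 250 bases before the start are printed for 5 called genes, 5′ to 3′ on the strand of the gene, to show where the motifs lie. Capitals mark the motifs searched: TATAAA on the given strand, and GGGCGG (GC box), CAGACA (SMAD element), TGACTCA (AP-1) and TTCNNNGAA (STAT5) on both strands, so that CCGCCC and TGTCTG are the GC box and the SMAD element read from the other strand. The windows are chr4:58206597-58206846 (Svep1, minus strand), chr3:54360857-54361106 (Postn, plus strand), chr11:55420081-55420330 (Sparc, minus strand), chr10:86300162-86300411 (Timp3, plus strand) and chr2:10153293-10153542 (Itih5, plus strand), and those of Svep1, Sparc and Timp3 precede a RefSeq start that lies downstream of the outermost start in GENCODE. Postn has a second start further upstream, not printed, and Fbln5 is the other called gene with an entry.
Svep1: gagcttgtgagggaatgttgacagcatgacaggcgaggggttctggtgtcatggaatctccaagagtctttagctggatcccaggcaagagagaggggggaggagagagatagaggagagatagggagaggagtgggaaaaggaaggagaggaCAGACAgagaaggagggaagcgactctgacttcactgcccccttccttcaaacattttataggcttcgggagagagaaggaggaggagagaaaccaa
Postn: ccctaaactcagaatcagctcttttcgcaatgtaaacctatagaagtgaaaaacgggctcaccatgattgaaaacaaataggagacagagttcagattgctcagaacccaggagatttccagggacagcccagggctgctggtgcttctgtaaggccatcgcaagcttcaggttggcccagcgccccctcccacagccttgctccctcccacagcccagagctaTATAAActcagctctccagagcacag
Sparc: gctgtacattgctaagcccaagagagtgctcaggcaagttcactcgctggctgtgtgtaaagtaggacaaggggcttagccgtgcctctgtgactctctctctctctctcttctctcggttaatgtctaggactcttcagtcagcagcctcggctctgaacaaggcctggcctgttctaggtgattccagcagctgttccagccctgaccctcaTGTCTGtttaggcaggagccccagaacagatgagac
Timp3: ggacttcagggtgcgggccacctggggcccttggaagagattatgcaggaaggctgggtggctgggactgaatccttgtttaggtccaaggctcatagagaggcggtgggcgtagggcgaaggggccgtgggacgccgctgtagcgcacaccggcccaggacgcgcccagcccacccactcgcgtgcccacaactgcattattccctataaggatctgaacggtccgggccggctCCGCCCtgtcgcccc
Itih5: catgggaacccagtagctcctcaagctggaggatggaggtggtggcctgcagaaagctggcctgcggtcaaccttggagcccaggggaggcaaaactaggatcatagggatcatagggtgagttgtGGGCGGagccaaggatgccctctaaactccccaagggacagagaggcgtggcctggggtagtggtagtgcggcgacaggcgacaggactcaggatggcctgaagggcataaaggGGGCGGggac

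Counting back from the start, the CAGACA of Svep1 spans bases 97 to 92 and that of Sparc bases 36 to 31, the TATAAA of Postn bases 26 to 21, the GC box of Timp3 bases 15 to 10, and those of Itih5 bases 124 to 119 and 10 to 5. No motif was common to the 5. Over the 45 starts of the matrix genes, 15.6% held TATAAA against 7.59% of all 32851 promoters in the table and 4.15% of those of tested genes. CAGACA was found in 26.7% against 17.1% and 13.8%, GGGCGG in 64.4% against 32.7% and 55.2%, TGACTCA in 6.67% against 4.46% and 3.46%, and TTCNNNGAA in 2.22% against 7.02% and 6.00%. These shares describe letters in a window and were not tested, and several starts belong to 1 gene.

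Genotype differences were next compared between the sexes. In females 50 of the 54 estimates were below 0 (median -0.60, against 60.2% of all genes), and in males 44 (median -0.48, against 60.1%). By limma 0 of the 54 were called in females, where 0% of all genes were called lower and 0.0204% higher, although 28 had an unadjusted p under 0.05 against 12.7% of all genes. In males 1 was called, Svep1 (-3.52, adjusted p 0.0278), against 0.0136% of all genes called lower, and 24 had an unadjusted p under 0.05 against 16.6%. The estimate was below 0 in both sexes for 43 of the 54, against 39.2% of all genes, in females alone for 7, in males alone for 1 and in neither sex for 3. The difference between the sexes itself, the interaction, passed for 0 of the 54 and 0% of all genes in either direction, with 20 of the 54 estimates below 0 (median 0.14, against 51.3% of all genes) and 8 of the 54 at an unadjusted limma p under 0.05 against 7.01% of all genes. In the linear model of the methods on the same contrasts, at an unadjusted p under 0.01, 6 of the 54 were lower in females, against 2.04% of all genes, and 6 in males, against 4.27%. On the mean of both sexes it called 12, against 5.49%.

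The 8 genes at an unadjusted interaction p under 0.05 went in both directions. Thbs1 (female -2.29, male -0.87), Mmp14 (-1.38 and 0.36) and Ogn (-0.99 and -0.02) had the more negative estimate in females. Svep1 (-2.28 and -3.52), Lamc1 (-0.37 and -1.14), Lama2 (-0.02 and -1.07), Hspg2 (-0.10 and -1.17) and Timp3 (-0.33 and -1.02) had it in males. None passed adjustment, with adjusted p from 0.648 to 0.704. By role, the basement membrane had a median of -0.32 in females and -0.81 in males, the latter -0.71 without KO male 1, and the proteoglycans one of -0.81 in females and -0.02 in males, the latter -0.28 without KO male 1. Without KO male 1, the male estimates of Tnc (from -0.12 to -1.70), Mmp14 (from 0.36 to -0.34) and Timp2 (from 0.19 to -0.42) moved towards those of females. Of the 54 male estimates 48 were then below 0, against 11072 of all 14675 genes. Without KO male 2, 35 were below 0 (median -0.45, against 0.02 over all genes). Without WT male 2 it was 31 (-0.24, against -0.03), and without WT male 1 it was 50 (-0.75, against -0.14). Each of these fits has 1 male in a group, whose spread is assumed to be that of the other groups.

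**Figure D5:**
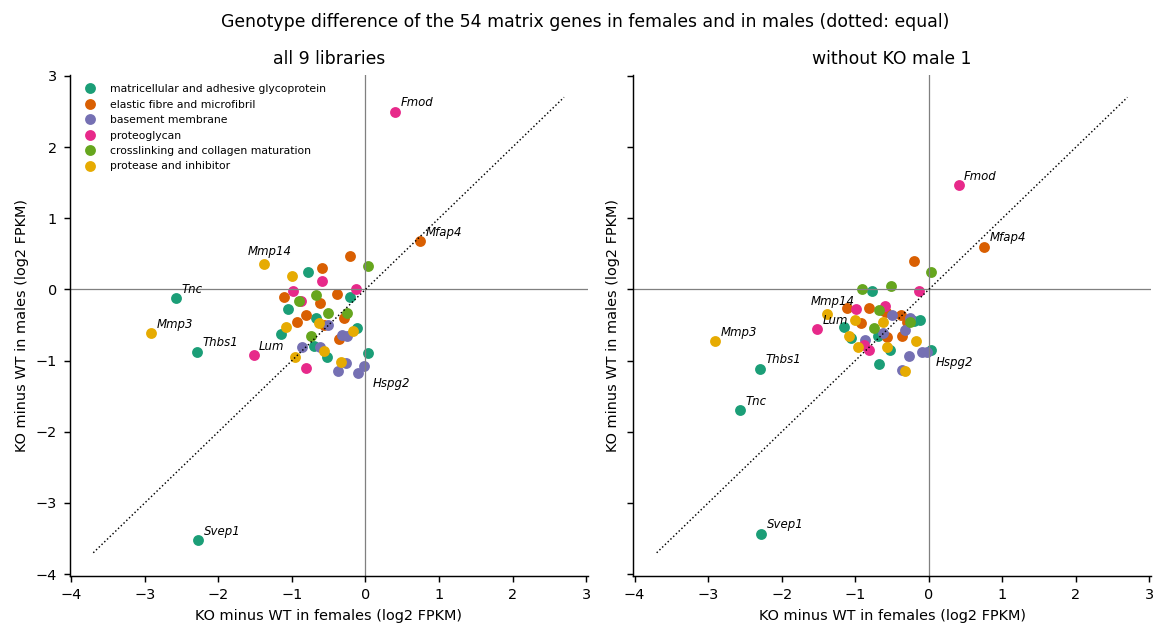
KO minus WT in log2 FPKM in males (vertical axis) against females (horizontal axis) for the 54 genes, coloured by role, with all 9 libraries on the left and without KO male 1 on the right. Most genes lie below 0 on both axes, and Tnc moves from a male difference of -0.12 to -1.70 when KO male 1 is left out.

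Sex itself, averaged over genotypes, gave 0 calls among the 54 against 0.0136% of all genes called lower in males and 0% higher. The estimate was below 0 for 29 of the 54, against 48.5% of all genes, and 9 had an unadjusted limma p under 0.05 against 10.4% of all genes. The lowest of these belonged to Prelp (lower in males, -0.43, adjusted p 0.227), Eln (higher in males, 0.53, adjusted p 0.263) and Adamts1 (lower in males, -0.93, adjusted p 0.296), chosen here after their values were seen. Eln was at 2.38, 3.25, 4.27, 4.17 and 3.95 FPKM in females and 4.65, 3.67, 5.41 and 6.27 in males, so the sexes overlapped across genotypes but not within either.

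Values of single libraries followed a common pattern across the 54 genes. WT male 2 had the highest of the 9 values for 22 of them, against 18.5% of all genes, and WT female 1 for 14, against 15.6%, so that 36 of the 54 had their highest value in one of the 2 libraries that stood apart in white adipocyte markers, against 34.1% of all genes. The lowest value was in KO male 1 for 16 genes, against 15.6% of all genes, in KO female 2 for 16, against 11.8%, in KO female 1 for 8, against 8.38%, in WT male 1 for 8, against 8.74%, and in KO male 2 for 6, against 26.9%. The basement membrane had 7 of its 9 lowest values in KO male 1. KO male 1 also had the highest value for Tnc, Emilin1, Dcn, Bgn, Fmod and Timp2, 6 of 54 against 28.3% of all genes. It exceeded KO male 2 for 29 of the 54 genes, by over 1 on the log2 scale for 7, with a median difference of 0.08. Fibroblasts and adipose progenitors make many of these proteins, and 12 of their markers summed to 494 to 593 FPKM in KO and 470 to 861 in WT, highest in WT female 1 and WT male 2. Of these 12, which include Mfap5, 1 was called lower, against 2.17% of all genes. The gene was Pdgfrb (-0.71, SE 0.10, limma adjusted p 0.0285). The estimate was below 0 for 9 of the 12, against 62.5% of all genes, with a median of -0.32. In females it was below 0 for 12 (median -0.56) and in males for 8 (-0.13). Without KO male 1, which leaves 1 KO male, the mean of both sexes was below 0 for 12 (median -0.51, against -0.15 over all genes). The part of these markers in the differences of the matrix genes was not tested.

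Other genes of the matrix gave the following counts, from lists written for this work. Of 15 fibrillar and network collagen chains, 8 were called lower and 0 higher, against 2.17% and 1.43% of all genes. Of the same 15, 11 did not overlap between the labels, against 6.04% of all genes, and the median estimate was -0.79. The lowest p belonged to Col5a2 (-1.21, SE 0.13, limma adjusted p 0.0156), with 2.76 to 2.99 FPKM in KO and 5.69 to 8.45 in WT, followed by Col6a2 (-0.79, SE 0.13, adjusted p 0.0323) and Col6a1 (-0.69, SE 0.12, adjusted p 0.0352). The same 2.17% is the background for the next lists. Of 24 matrix receptors 22 were tested and 1 was called lower, Itga1, the alpha chain of a collagen and laminin receptor (-0.51, SE 0.09, adjusted p 0.0347), with a median of -0.29. Of 29 other proteases and inhibitors 24 were tested and 3 were called lower, with a median of -0.39. These were Serpine2, or protease nexin 1 (-0.65, SE 0.09, adjusted p 0.0285), Timp4, the metalloproteinase inhibitor abundant in fat (-0.70, SE 0.12, adjusted p 0.0343), and Adamts15 (-1.76, SE 0.29, adjusted p 0.0347).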

How the data were processed

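Poly A+ RNA from BAT of single mice was sequenced as 50-base pairs on an Illumina HiSeq, for which the labels name more than 1 model. The authors mapped reads to mm10 with TopHat2 2.0.11 and Bowtie after bcl2fastq 1.8.4, per the submitters' processing notes, and deposited 1 table of FPKM per library. Whether counting used strand is not given in the sources used here. No counts were used, so depth is known only as a ratio, from values between 0.001 and 0.15 FPKM, and the 9 libraries held 0 identical pairs.

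The 54 matrix genes and all other lists were chosen with earlier results of these data known. Groups followed the labels. Genes above 0 FPKM in all 9 libraries (14675) were tested on log2 FPKM without pseudocount. Their lowest values lie close to 0, so that log2 differences of single genes ran from -94.16 to 109 for genotype. Group means of genotype and sex were fitted with limma 3.58.1 (trend, R 4.3.3) in place of the linear model of the methods, which was kept as an alternative, and p-values were adjusted by Benjamini-Hochberg over all tested genes at 0.05. Differences are KO minus WT, in females, in males and as their mean, with the interaction and the sex difference. The exact permutation test compared mean log2 FPKM over all splits of 4 and 5 libraries. The genes named with values were those called, the highest level and the lowest p in each role and the 3 most positive estimates. The remaining members are given by estimate or range, and where they have library values they were chosen after these were seen. Alternatives were pseudocounts of 0.1 and 1 FPKM, median centring, quantile normalization, a mean FPKM of at least 1, no filter, limma without trend, the linear model at p under 0.01, and each library left out. The 17 alternatives counted for single genes exclude the linear model. They include the fit without KO male 1, WT female 1 and WT male 2, which was chosen after seeing the data. Coordinates and overlaps are from GENCODE M21 (GRCm38). Tables were made in Python 3.11.15 (pandas 2.3.3, numpy 2.4.6), figures with matplotlib 3.10.9, and the fits were tested on simulated data. Among the genes called in the TGF-beta list, only Tgfbr3 is reported here by name.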

Additional observations from a re-analysis of the deposited data

Results flagged for a closer look

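In each group of 4 KO or 5 WT libraries, the gap of the highest or lowest library to its nearest neighbour was set against the range of the group. Over the 54 genes this made 108 group tests, and chance marks about 1 in 20 groups, so some of the 9 marked values below are to be expected without any difference between libraries. KO male 1 stood far above the other 3 KO libraries for Tnc, at 2.47 FPKM against 0.220 to 0.278, for Emilin1, at 1.87 FPKM against 0.622 to 0.783, for Bgn, at 40.1 FPKM against 14.4 to 17.0, and for Timp2, at 33.1 FPKM against 10.2 to 14.1. This is the library with 156 summed FPKM of lymphocyte markers, and the part of that in the 4 values was not tested. WT male 2 stood above the other 4 WT libraries for Lama4, at 21.2 FPKM against 10.9 to 13.0, for Lamc1, at 19.7 FPKM against 10.6 to 12.2, for Fbln5, at 3.09 FPKM against 2.36 to 2.57, and for Timp1, at 1.25 FPKM against 0.302 to 0.439. WT female 1 stood above the other 4 for Efemp1, at 24.9 FPKM against 12.5 to 15.0. No member was marked for a low value.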

How the results depend on the processing

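Averaged over the sexes, the direction of the differences was steadier than the number of calls. Over the alternatives 46 to 51 of the matrix genes had such an estimate below 0, with a median between -0.66 and -0.41. On this average 0 were called higher for genotype in any of them. In males the direction was less steady, from 31 genes below 0 without WT male 2 (median -0.24) to 50 without WT male 1 (-0.75). In females it ran from 44 without KO female 2 to 53 without KO female 1. The 9 genes called lower, against 2.17% of all genes, became 2 with median centring, against 0.627%. They became 5 with no filter and a pseudocount of 0.1 FPKM together, against 0.56%, and 1 without the trend, against 0.129%. With 1 of the WT females left out they were 1 or 2, against 0.0273% to 0.157% of all genes. In females the 0 called lower became 1 with a mean FPKM of at least 1, against 0.0644% of all genes. It became 6 by the linear model, against 2.04%, and stayed 0 with any 1 of the WT females left out. In males the 1 called lower became 0 with a pseudocount of 1 FPKM, quantile normalization, no filter with a pseudocount of 0.1 FPKM, or no trend. It was also 0 with any 1 of the WT females left out, and 6 by the linear model, against 4.27% of all genes. Where leaving out 1 library left 1 animal in a group, calls in females, in males, for the interaction and for sex are not given. For the interaction 0 were called in the alternatives that keep all 9 libraries. Without KO male 2, which leaves 1 KO male, the median interaction over the 54 was 0.19, against 0.08 over all genes. For sex the linear model called 1 lower and 2 higher in males. Without KO male 2 the median sex difference over the 54 was -0.01, against 0.06 over all genes. Genes without overlap went from 15 (6.04% of all genes) to 12 with median centring (3.26%) and 12 with quantile normalization (4.57%). With each library left out they were 15 to 23, where the share of all genes was 7.06% to 13.5%. The alternative without KO male 1, WT female 1 and WT male 2 was chosen after seeing the data: 6 were called for genotype (0.729% of all genes), 8 in females (0.709%) and 0 in males (0.0204%), and 24 did not overlap (17.0%). With each library left out Serpinh1 ran from -0.64 to 0.052 (without WT male 2) and Loxl1 from -0.049 (without WT male 1) to 0.41, and Serpinh1 was 0.015 without the 3 libraries. The cause was not tested. Of the 306 values of single named genes under alternatives, 218 kept side and direction, 82 lost their call and 3 gained one. Over all genes quantile normalization gave 216 lower and 228 higher, and centring moved the median of all genes from -0.07 to 0.04 in females and from -0.01 to -0.12 for the interaction. A library left alone in its group is assumed to vary like the others. No paired analysis was possible because the labels number animals and share no number between groups.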

Other observations

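TGF-beta signalling and hyaluronan turnover, pathways that act on the matrix, were followed in lists of their own. The 19 TGF-beta genes had a median estimate of -0.17, against -0.07 over all genes, with 14 of 19 below 0, against 62.5% of all genes. By limma 2 were called lower and 0 higher in KO, against 2.17% and 1.43%. An unadjusted limma p under 0.05 was reached by 5, against 20.2%, and 3 did not overlap between the labels, against 6.04%. Tgfbr3, for the coreceptor betaglycan, was at 10.5 to 12.8 FPKM in KO and 15.3 to 23.3 in WT (-0.63, SE 0.11, limma adjusted p 0.0363), and was called lower without overlap between the labels.

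Of 11 genes for hyaluronan synthesis and turnover 9 were tested, and 0 were called by limma. An unadjusted limma p under 0.05 was reached by 3, against 20.2% of all genes. Their median estimate was -0.30, with 8 of 9 below 0, against 62.5% of all genes. In females 6 of 9 were below 0, against 60.2% of all genes, and in males 6, against 60.1%. Summed over the 11, KO libraries held 27.8 to 31.7 FPKM and WT libraries 33.6 to 37.4 FPKM, without overlap. Of the 9 single genes 1 did not overlap, against 6.04% of all genes.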
